A study of Homo sapiens with 2 samples.

Results

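The lysosomal acidification and autophagy machinery was followed gene by gene after knockdown of PHF5A, a small subunit of the SF3b complex that helps the spliceosome hold the branch point of an intron. The genes were chosen by name: subunits of the vacuolar proton pump (ATP6V0 and ATP6V1) and its accessory proteins (ATP6AP1 and ATP6AP2), the cathepsins (CTS with 1 letter), the lysosome-associated membrane proteins LAMP1 to LAMP3, the numbered ATG genes, and the ATG8 family (GABARAP, GABARAPL1, GABARAPL2 and the MAP1LC3 genes). This gave 65 of the 50867 genes of the table, after 13 pseudogene names, all without a count, had been left out. The rule reads names and no expression values, and it does not take in ATG16L1 and ATG16L2.

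The cells were HCT116, an established human colorectal carcinoma line. They received either a control siRNA or an siRNA against PHF5A; the labels give neither the siRNA sequence nor a time after transfection. The study asked for the transcripts that depend on PHF5A in this kind of tumour cell. Each group had 1 library, so no difference below has a replicate check, no test between the groups was possible, and "higher" and "lower" describe these 2 libraries.

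As background, the vacuolar ATPase (V-ATPase) pumps protons into lysosomes and other compartments. Its cytosolic V1 sector hydrolyses ATP and turns a rotor, and its membrane sector V0 carries the protons. The resulting acid activates the cathepsins, proteases that degrade what reaches the lysosome, inside a membrane lined by LAMP glycoproteins. Macroautophagy feeds this compartment: an initiation complex and membrane-supplying proteins start a double membrane, 2 conjugation reactions attach ATG8 proteins to it, and ATG4 proteases prepare and recycle those ATG8 proteins. Many of these genes are known targets of TFEB and its relatives, factors that bind a CACGTG core in promoters.

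That core is the sequence feature shown here first, because the name rule did not use it. RefSeq promoters (GRCh38.p14, from 250 bases before to 50 after a start) were matched to 49 of the 65 genes, which had 58 promoter entries of 300 bases each. CACGTG, which is its own reverse complement and so was searched on both strands at once, lay in 11 of the 58 entries (18.97%). Of all 35116 promoters of the same length 7.26% held it. Among entries of expressed genes of the name rule it lay in 8 of 32 (25%), beside 10.2% of the promoters of all expressed genes. The longer palindrome TCACGTGA, which contains the first motif, lay in 5 of the 58 entries (8.62%), beside 0.98% of all promoters. For expressed genes it lay in 4 of the 32 entries (12.5%), beside 1.72% of the promoters of all expressed genes. The 7 expressed genes with the motif are printed below, 5′ to 3′ along the gene's strand with the longest motif match in capitals, because they cover both sectors of the pump, 2 cathepsins and LAMP1. They lie at chr16:67481194-67481233 on the minus strand (ATP6V0D1), chr9:114587694-114587733 on the plus strand (ATP6V1G1), chr1:43974887-43974924 on the plus strand (ATP6V0B), chr7:149872880-149872917 on the plus strand (ATP6V0E2), chr20:45891293-45891332 on the plus strand (CTSA), chr11:1763953-1763990 on the minus strand (CTSD) and chr13:113297194-113297233 on the plus strand (LAMP1).
ATP6V0D1: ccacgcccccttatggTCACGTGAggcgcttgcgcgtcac
ATP6V1G1: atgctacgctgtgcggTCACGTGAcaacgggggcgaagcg
ATP6V0B: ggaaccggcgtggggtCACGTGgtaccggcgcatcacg
ATP6V0E2: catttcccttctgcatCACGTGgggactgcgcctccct
CTSA: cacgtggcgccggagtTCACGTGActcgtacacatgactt
CTSD: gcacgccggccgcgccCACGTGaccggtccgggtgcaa
LAMP1: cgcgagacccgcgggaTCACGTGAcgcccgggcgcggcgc

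The centre of the printed motif lay 56 bases before the start in ATP6V0D1, 55 in ATP6V1G1, 54 in ATP6V0B, 69 in ATP6V0E2, 22 in CTSA, 44 in CTSD and 25 in LAMP1. The LAMP1 window held 6 copies of CACGTG. A match is a description of the letters and not evidence of binding. Ratios of the libraries for these genes come with their families below; over the 7 genes the log2 ratio ranged from -0.54 to 0.59 with a median of 0.18, and over the 21 expressed genes whose entries lacked the motif the median was 0.06. For the longer TCACGTGA the order was opposite, with a median of 0.05 over 4 genes with it and 0.15 over 24 without. All expressed genes of the table with the motif had a median of -0.14 (n = 803), and those without it -0.16 (n = 5158).

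Library totals were 26552789 counts for the control siRNA and 25897412 for the PHF5A siRNA. PHF5A itself had 367 and 91 counts, 9.07 and 2.31 FPKM (a level scaled to gene length and library size), which was 3.93-fold lower after knockdown; values are given in this order throughout, control first. In total-RNA libraries abundant noncoding RNAs take a large share: the signal recognition particle, 7SK and RNase P RNA genes took 16.5% of all counts with the control siRNA and 25.8% with the PHF5A siRNA. The cell-type markers matched the line only in part. The epithelial list summed to 2005 FPKM in the control and 2010 after knockdown, 6 of its 8 genes being expressed, while KRT20 was at 0 in both and VIL1 at 0 and 1 count. All 16 heart muscle markers passed 1 FPKM in the control library, with 100075 counts there against 325 after knockdown, where 8 of the 16 were at 0; their summed level was 315 and 3.04 FPKM. Fibroblast markers summed to 9.27 and 2.66 FPKM. Myeloid markers summed to 5.60 and 3.64 FPKM, with AIF1 at 0 in both and PTPRC at 6 and 1 counts. Lysosome and autophagy genes are active in most tissues, and how much of their control counts came with the heart muscle transcripts was not tested; with 1 control library, no comparison without it could be made.

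A gene was called expressed at 1 FPKM or more in the higher library, and its log2 ratio is that of FPKM + 1, knockdown to control. Of the 65 genes, 35 were expressed. Their log2 ratios ranged from -0.84 to 1.003 (SD over genes 0.50) with a median of 0.05, beside -0.15 (SD 0.63) over all 8957 expressed genes, and 21 of the 35 lay above that value. Higher by 2-fold or more after knockdown was 1 gene (2.86%), close to the 2.53% of all expressed genes, and at least 2-fold lower was none, beside 6.2% of all expressed genes. With a 1.5-fold limit, 5 genes (14.3%) were higher, beside 8.45% of expressed genes, and 3 (8.57%) were lower, beside 18.2%. These counts depend on the setting. With overlapping entries summed, ATP6V0E2 and MAP1LC3B dropped out and 3 genes (8.57%) were higher. The share over all expressed genes was then 8.43%, but only genes of the name rule were summed, so these shares were not treated alike. Under TPM none was higher and 12 were lower (34.3%, beside 40.2% of expressed genes), and with median centring 9 were higher (25.7%, beside 12.8%) and 3 lower (beside 12.6%). No count comes from a test. The heart muscle difference given above lies between the same 2 libraries, and its part in these counts was not tested.

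Counting error alone was small for most of these genes. The ratio of CPM, which are counts divided by the library's total, carries a 95% exact binomial interval that covers counting error and not the variation between cultures. The interval lay above 1 for 15 of the 35 expressed genes, below 1 for 15, and held 1 for 5. Of the 35 log2 ratios 16 (45.7%) were below 0, beside 62.0% of all expressed genes. The direction also depends on scaling. Tried were 4 others: median centring, upper quartile, TPM and totals without the abundant noncoding RNAs. Under them 10 genes stayed above 0, 13 stayed below 0 and 12 changed sign. Like counts of intervals and of stable signs over all expressed genes are not given here. Rescaling to TPM, in which the abundant short RNAs weigh most, moved the median of the expressed genes from -0.15 to -0.47, while median centring moved it to 0.

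**Figure D1:**
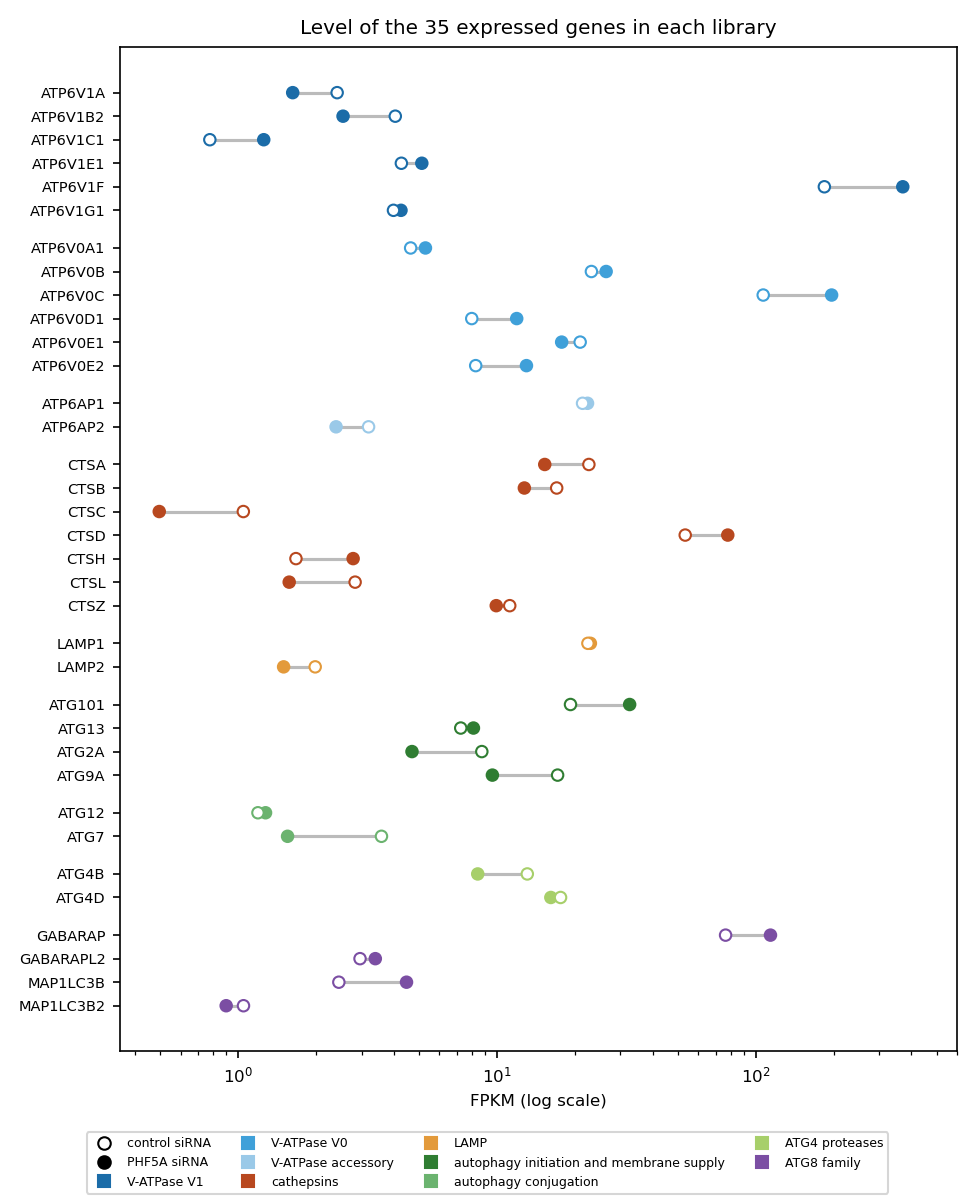
FPKM on a log axis for the 35 expressed genes, open points for the control siRNA library and filled points for the PHF5A siRNA library, coloured by role; a grey line joins the 2 libraries of a gene. ATP6V1F, ATP6V0C, GABARAP and CTSD had the highest levels in both libraries, and each was higher in the knockdown library.

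The V-ATPase genes lay above the expressed genes' median as a group, and the large values sat in a few subunits. Of 24 pump and accessory genes 14 were expressed; 10 of these had a log2 ratio above -0.15, and the median was 0.17 (-0.21 when rescaled to TPM, where the expressed genes' median was -0.47). At least 1.5-fold higher were 3 (21.4%, beside 8.45% of all expressed genes) and at least 1.5-fold lower none (beside 18.2%). With overlapping entries summed 2 were higher (14.3%, beside 8.43%), though only genes of the name rule were summed. Under TPM none was higher (beside 3.30%) and 4 were lower (28.6%, beside 40.2%). The summed level of the pump and accessory genes was 399 FPKM in the control and 683 after knockdown.

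ATP6V1F (chr7:128862826-128865844), the F subunit of the rotor stalk in V1, had 6926 counts in the control and 13573 after knockdown, 184 and 370 FPKM. It was the most abundant of the 65 genes in both libraries and the only one of them that reached 2-fold on the FPKM + 1 scale, with a log2 ratio of 1.003 and a CPM ratio of 2.01 (interval 1.95 to 2.07). Of all expressed genes, 97.5% had a lower ratio. Its exons share 187 bases with KCP on the opposite strand, which had 30 and 20 counts, and the sum of both genes gave a ratio of 2.004.

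The catalytic core of V1 lay on the other side. ATP6V1A (chr3:113747019-113812056), the ATP-hydrolysing A subunit, had 402 and 264 counts, 2.41 and 1.63 FPKM, a log2 ratio of -0.38. ATP6V1B2 (chr8:20197367-20226819), the widely expressed B subunit, had 1154 and 707 counts, 4.05 and 2.54 FPKM, a log2 ratio of -0.51 and a CPM ratio of 0.628 (0.571 to 0.690). Both were lower in the knockdown library under each of the scalings tried.

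Of the stator subunits of V1, the expressed C1, E1 and G1 were higher or near equal. ATP6V1C1 (chr8:103021063-103073051), which clamps the V1 sector to V0, had 172 and 271 counts, 0.777 and 1.26 FPKM, with a CPM ratio of 1.62 (1.33 to 1.97). It thus counted as expressed only through the knockdown library, where it was higher. ATP6V1E1 (chr22:17592136-17628818), a peripheral stalk subunit, had 4.27 and 5.13 FPKM, a log2 ratio of 0.22. ATP6V1G1 (chr9:114587746-114598373), its partner in the stalk, had 164 and 171 counts, and its CPM ratio of 1.07 had an interval of 0.858 to 1.33. The log2 ratios of ATP6V1E1 and ATP6V1G1 turned negative when rescaled to TPM. The expressed V1 genes therefore spread from -0.51 to 1.003 around a median of 0.15 (n = 6; -0.20 under TPM).

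In V0, 6 genes were expressed with a median of 0.35 (-0.03 under TPM). ATP6V0C (chr16:2513870-2520218), the proteolipid that forms the proton-carrying ring, had 6689 and 11992 counts, 107 and 197 FPKM, a log2 ratio of 0.87 and a CPM ratio of 1.84 (1.78 to 1.89). It was the second most abundant of the 65 genes. Further entries on the same strand overlap it, and summed with them it had 8085 and 14016 counts and a ratio of 1.78.

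The other V0 genes followed with smaller values. ATP6V0D1 (chr16:67438014-67481237), which couples the rotor to the ring, had 3106 and 4520 counts, 7.995 and 11.9 FPKM, a log2 ratio of 0.52. ATP6V0B (chr1:43974487-43978295), the c″ proteolipid of the ring, had 23.2 and 26.4 FPKM, a log2 ratio of 0.18. ATP6V0A1 (chr17:42458844-42522611), an isoform of the large a subunit that lines the proton path, had 4.64 and 5.30 FPKM, a log2 ratio of 0.16. The last 2 turned below 0 under TPM, and ATP6V0D1 did not under any of the scalings.

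The e subunits went opposite ways. ATP6V0E1 (chr5:172983757-173035445) had 1783 and 1475 counts, 21.0 and 17.8 FPKM, a log2 ratio of -0.23. ATP6V0E2 (chr7:149872968-149880698) had 2736 and 4192 counts, 8.28 and 13.0 FPKM, a log2 ratio of 0.59. The share of ATP6V0E2 in their summed FPKM was 28.3% in the control and 42.2% after knockdown, while the sum itself was 29.3 and 30.8 FPKM.

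The a subunit, which steers the pump to particular membranes, differed in the same way when TCIRG1 is added, the a3 isoform whose name the rule does not cover. TCIRG1 had 1628 and 864 counts, 7.48 and 4.07 FPKM, a log2 ratio of -0.74. Its share of the a-subunit FPKM was 59.0% in the control and 40.9% after knockdown, and that of ATP6V0A1 36.6% and 53.2%. The order of these isoforms was thus opposite in the 2 libraries. ATP6V0A2 and ATP6V0A4, at 182 and 136 and at 19 and 35 counts, stayed below 1 FPKM.

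Of the accessory proteins, ATP6AP1 (chrX:154428632-154436516), an assembly factor of the pump, had 5125 and 5225 counts, 21.4 and 22.4 FPKM, a log2 ratio of 0.06. ATP6AP2 (chrX:40580908-40606637), the prorenin receptor, had 293 and 214 counts, 3.19 and 2.39 FPKM, a log2 ratio of -0.31. ATP6AP1 is hardly separated between the libraries and turned below 0 under TPM; ATP6AP2 was lower under each scaling.

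The remaining pump genes were below 1 FPKM. ATP6V1H had 178 and 141 counts, ATP6V1D 124 and 67, ATP6V1E2 39 and 64, ATP6V1G2 24 and 25, ATP6V1C2 21 and 11, ATP6V1B1 5 and 16, and ATP6V0D2 6 and 0, while ATP6V1G3 had none in either. D and H are V1 subunits without an isoform among these genes, and their level depends on the length used. The deposited FPKM of the expressed genes implies a length with a median of 1.72 times the union of their GENCODE 29 exons; on that union ATP6V1H had 1.32 and 1.07 FPKM and ATP6V1D 1.10 and 0.609. ATP6V1D had a CPM ratio of 0.554 (0.405 to 0.752) and ATP6V1H one of 0.812 (0.646 to 1.02). The tissue-restricted isoforms of the B, E and G subunits added little: ATP6V1B2, ATP6V1E1 and ATP6V1G1 made up 93.7% to 99.1% of the FPKM of their subunits in both libraries.

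**Figure D2:**
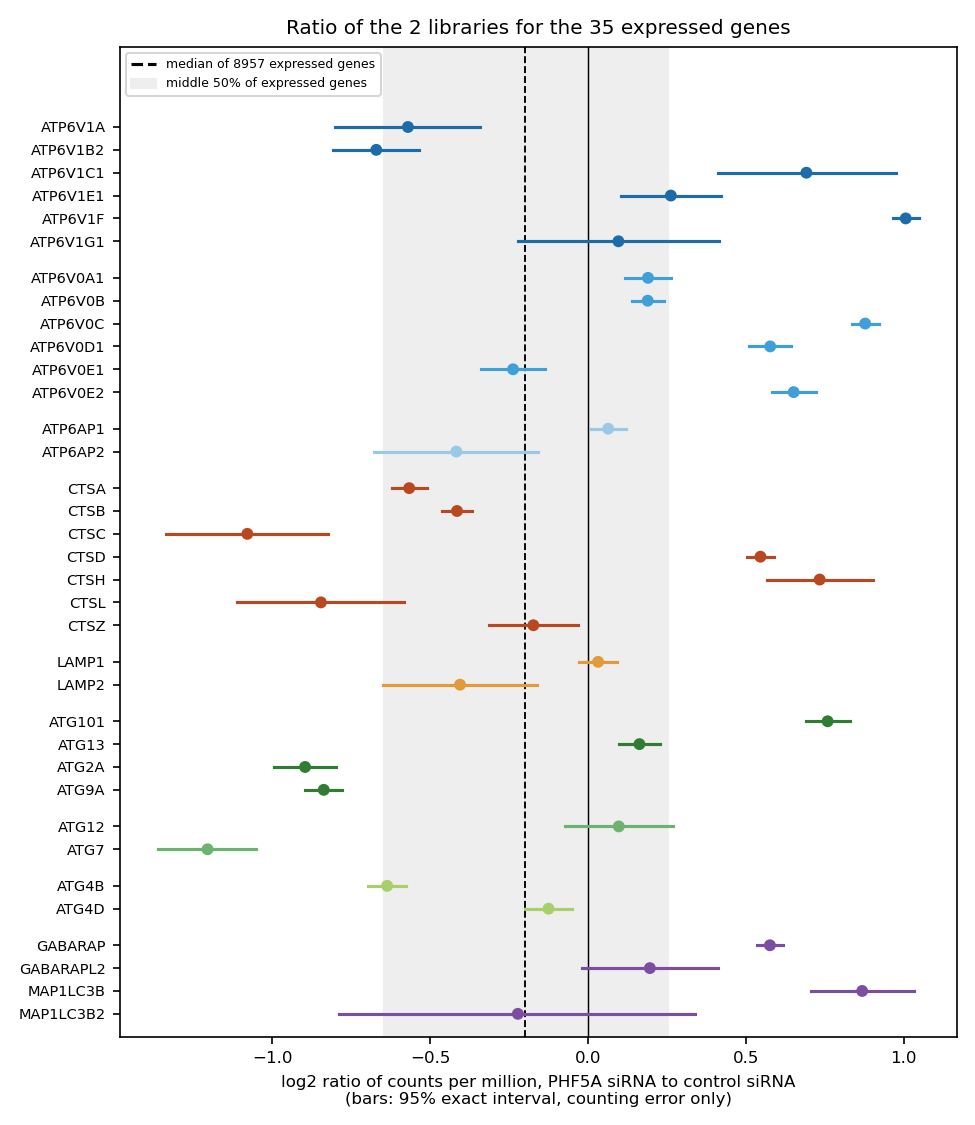
Log2 ratio of CPM, PHF5A siRNA to control siRNA, for the 35 expressed genes grouped as in the level plot; bars are 95% exact intervals for counting error. The grey band holds the middle 50% of the 8957 expressed genes (-0.65 to 0.25) and the dashed line is their median (-0.20). ATP6V1F, ATP6V0C, ATP6V0D1, ATP6V0E2, ATP6V1C1, ATP6V1E1, CTSD, CTSH, ATG101, GABARAP and MAP1LC3B lie to the right of the band, and ATP6V1B2, CTSC, CTSL, ATG2A, ATG9A and ATG7 to its left.

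The cathepsins divided, and the most abundant one was higher in the knockdown library. Of 15 cathepsin genes 7 were expressed, 2 with a log2 ratio above 0 and 5 below (71.4%, beside 62.0% of all expressed genes), with a median of -0.39 (-0.67 under TPM). Their summed level was nearly level, 110 FPKM in the control and 121 after knockdown.

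CTSD (chr11:1752752-1763992), the main aspartic protease of the lysosome, had 7634 and 10874 counts, 53.4 and 78.0 FPKM, a log2 ratio of 0.54 and a CPM ratio of 1.46 (1.42 to 1.504). Another entry on the same strand that shares 1304 exon bases with it, RP11-295K3.1, had 104 and 6 counts. CTSH (chr15:78921058-78949574), a cysteine protease that trims amino ends, had 466 and 756 counts, 1.67 and 2.78 FPKM, a log2 ratio of 0.50. These were the higher cathepsins, and they stayed above 0 under each scaling.

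CTSA (chr20:45890144-45898820) is a serine carboxypeptidase that also protects neuraminidase NEU1 and beta-galactosidase GLB1 in a complex. It had 6552 and 4315 counts, 22.7 and 15.3 FPKM, a log2 ratio of -0.54. CTSB (chr8:11842524-11869448), an abundant cysteine protease, had 8260 and 6042 counts, 17.0 and 12.8 FPKM, a log2 ratio of -0.39. Both were lower under each scaling, with counting intervals of 0.650 to 0.702 and 0.725 to 0.775 for the CPM ratio.

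The other expressed cysteine cathepsins were lower too, by differing amounts. CTSL (chr9:87725519-87731393), an endoprotease, had 341 and 185 counts, 2.83 and 1.58 FPKM, a log2 ratio of -0.57. CTSC (chr11:88293592-88337787), the dipeptidyl peptidase that activates serine proteases of immune cells, had 403 and 186 counts and passed 1 FPKM only in the control, at 1.05 against 0.496. Its CPM ratio of 0.473 (0.396 to 0.564) passes 2-fold, while the log2 ratio with its pseudocount of 1 was -0.45. CTSZ (chr20:58995185-59007247), a carboxypeptidase, had 889 and 769 counts and a log2 ratio of -0.16, which turned above 0 with upper-quartile scaling.

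The composition of the family followed. CTSD made up 48.4% of the cathepsin FPKM in the control and 64.3% after knockdown, CTSA 20.5% and 12.6%, and CTSB 15.4% and 10.5%. Cathepsins below 1 FPKM had few counts. CTSK, of bone-resorbing osteoclasts, had 15 and 2 counts, CTSV 22 and 47, CTSO 7 and 4, and CTSW 4 and 0. CTSS had 0 and 4, CTSE 2 and 0, CTSF 2 and 0, and CTSG none.

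Of the LAMP proteins, which coat the inner face of the lysosomal membrane, LAMP1 was near equal and LAMP2 lower. LAMP1 (chr13:113297241-113323672) had 4654 and 4641 counts, 22.5 and 23.0 FPKM, a log2 ratio of 0.03 that turned negative under TPM, and a CPM ratio of 1.02 (0.981 to 1.07). LAMP2 (chrX:120427827-120469365), needed for fusion and for chaperone-mediated autophagy, had 330 and 243 counts, 1.99 and 1.499 FPKM, a log2 ratio of -0.26 that stayed negative under each scaling. LAMP3 had 35 and 11 counts and was not expressed by the 1 FPKM rule.

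**Figure D3:**
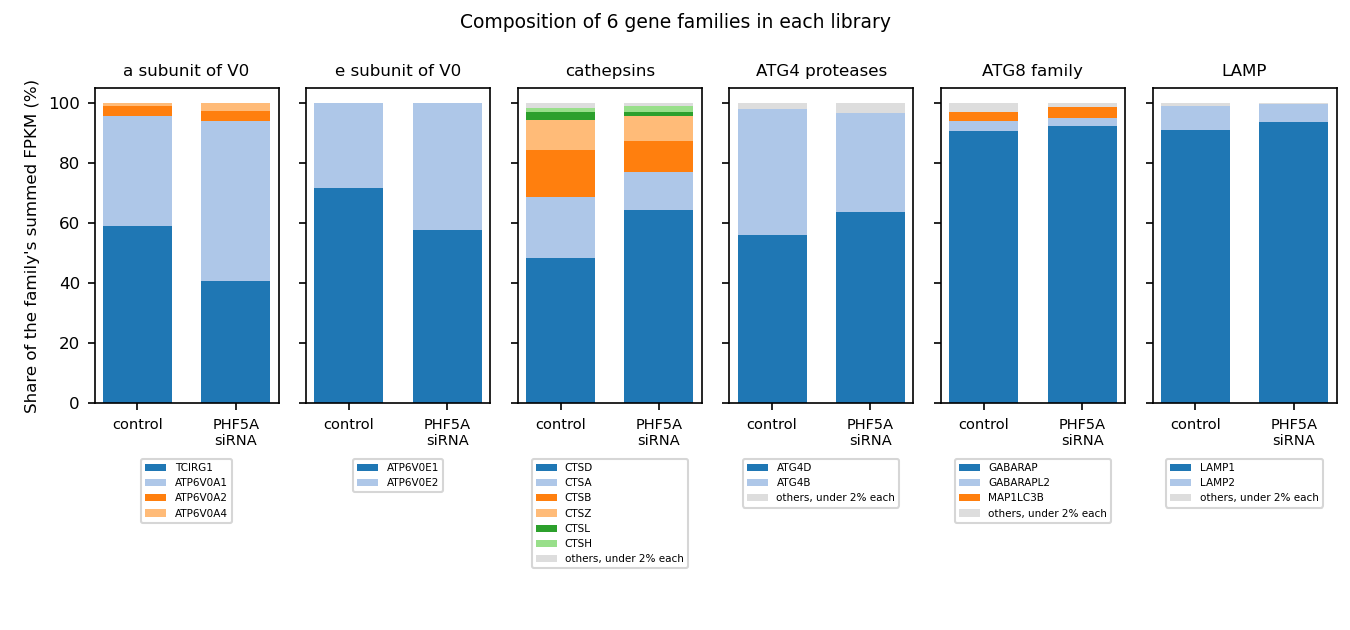
Stacked bars of the share of a family's summed FPKM (%) held by each gene in the control and the PHF5A siRNA library, for the a and e subunits of V0, the cathepsins, the ATG4 proteases, the ATG8 family and the LAMP genes. The share of TCIRG1 was 59.0% and 40.9%, that of ATP6V0E2 28.3% and 42.2%, and that of CTSD 48.4% and 64.3%, while GABARAP held 90.6% and 92.5% of the ATG8 family.

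The numbered ATG genes were mixed. Of 16 genes 8 were expressed; 3 had a log2 ratio above 0 and 5 below (62.5%, beside 62.0% of all expressed genes), with a median of -0.35 (-0.75 under TPM, and -0.06 with the counts of overlapping entries added). At least 1.5-fold lower were 3 of them (37.5%, beside 18.2% of all expressed genes) and at least 1.5-fold higher was 1 (12.5%, beside 8.45%).

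At the initiation step, ATG101 (chr12:52069246-52077494), which stabilises ATG13 in the ULK1 kinase complex, had 2698 and 4454 counts, 19.3 and 32.6 FPKM, a log2 ratio of 0.73 and a CPM ratio of 1.69 (1.61 to 1.78). ATG13 (chr11:46617527-46674818), its binding partner, had 3697 and 4037 counts, 7.25 and 8.12 FPKM, a log2 ratio of 0.14 that turned negative under TPM. The ratio of ATG101 was thus above that of its partner.

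The proteins that bring lipid to the growing membrane were lower. ATG9A (chr2:219209772-219229717), the lipid scramblase of autophagic vesicles, had 6756 and 3688 counts, 17.2 and 9.61 FPKM, a log2 ratio of -0.78. ABCB6, which overlaps it on the same strand without shared exon bases, had 1493 and 732 counts. ATG2A (chr11:64894546-64917248), the lipid transfer protein that works with ATG9A, had 2443 and 1280 counts, 8.75 and 4.70 FPKM, a log2 ratio of -0.77 and a CPM ratio of 0.537 (0.502 to 0.575). Their relatives ATG9B, at 33 and 32 counts, and ATG2B, at 75 and 61, were below 1 FPKM, as was ATG14, of the lipid kinase complex, at 70 and 58.

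ATG7 (chr3:11272309-11557665) is the E1-like enzyme that activates both ATG12 and the ATG8 proteins. It had 1142 counts in the control and 483 after knockdown, 3.58 and 1.55 FPKM, a log2 ratio of -0.84 and a CPM ratio of 0.434 (0.389 to 0.483). This was the lowest log2 ratio of the 35 genes, and 9.57% of all expressed genes had a lower one. VGLL4 shares 1596 exon bases with it on the opposite strand and had 171 and 237 counts; the sum of both gave a ratio of 0.562.

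ATG12 (chr5:115828200-115841858), the ubiquitin-like protein joined to ATG5, had 551 and 575 counts, 1.19 and 1.28 FPKM, and its CPM ratio of 1.07 had an interval that held 1 (0.950 to 1.20). The rest of the conjugation genes of the name rule were below 1 FPKM. ATG3, the conjugating enzyme of the ATG8 proteins, had 159 and 124 counts, ATG10, that of ATG12, had 61 and 83, and ATG5 had 112 and 104, all with intervals of the CPM ratio that held 1. Of the expressed pair, ATG7 was beyond 1.5-fold and ATG12 was not. ATG16L1 and ATG16L2 fall outside the name rule and are counted with the other autophagy genes further below. ATG16L1 was expressed, with 1157 and 812 counts and a log2 ratio of -0.35. ATG16L2, at 260 and 98 counts, was below 1 FPKM.

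Among the ATG4 proteases, ATG4B (chr2:241637213-241673857), the main processing enzyme, had 5999 and 3764 counts, 13.1 and 8.43 FPKM, a log2 ratio of -0.58. THAP4, on the opposite strand and sharing 237 exon bases with it, had 3253 and 5789 counts, and the sum of both genes was 9252 and 9553, a ratio of 1.06 (1.03 to 1.09). No source used here states whether the counting used strand, so how reads were divided between these genes is uncertain. The value of ATG4B may depend on it. ATG4D (chr19:10543895-10553418) had 3170 and 2835 counts, 17.6 and 16.2 FPKM, a log2 ratio of -0.12 that turned above 0 under the 3 scalings other than TPM. ATG4A, at 47 and 43 counts, and ATG4C, at 16 and 33, were below 1 FPKM.

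In the ATG8 family 1 gene held most of the level. The median over 4 expressed genes was 0.36, but 0.05 with overlapping entries summed, which turns MAP1LC3B, and -0.01 under TPM. GABARAP (chr17:7240014-7242770) had 8427 and 12256 counts, 76.5 and 114 FPKM, a log2 ratio of 0.57 and a CPM ratio of 1.49 (1.45 to 1.53). GABARAPL2 (chr16:75566351-75577881) had 341 and 381 counts, 2.96 and 3.39 FPKM, and an interval that held 1 (0.987 to 1.33); its log2 ratio of 0.15 turned negative under TPM. GABARAPL1 had 284 and 205 counts and stayed below 1 FPKM, although on the union of its exons it had 2.62 and 1.94.

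The LC3 arm was far less abundant, at 4.26 and 5.42 FPKM in sum beside 80.2 and 118 for the GABARAP arm. MAP1LC3B (chr16:87383995-87404779), the usual marker of autophagosomes, had 484 and 862 counts, 2.45 and 4.47 FPKM, a log2 ratio of 0.67. FBXO31, on the opposite strand with 150 shared exon bases, had 3985 and 3377 counts, and the sum of both was 4469 and 4239, a ratio of 0.973 (0.932 to 1.01). As for ATG4B, how the counting divided reads between the strands is uncertain. FBXO31 held most of the summed counts, so the sum cannot show whether this division sets the direction of MAP1LC3B. Its near-identical copy MAP1LC3B2 (chr12:116548105-116576448) had 61 and 51 counts, a log2 ratio of -0.11 with an interval of the CPM ratio from 0.579 to 1.26; the counts of both copies summed to 545 and 913. MAP1LC3C had 21 counts in the control and 1 after knockdown, and MAP1LC3A 6 and 1. CTSK and LAMP3 also had more counts in the control, in which the heart muscle markers were high; whether these few counts belong with them was not tested.

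Genes of the same pathways that the name rule does not cover were taken from lists of 109 genes, of which 75 were expressed. At least 2-fold higher were 3 (4%, beside 2.53%) and at least 2-fold lower 4 of the 75 (5.33%, beside 6.2%). Of the 3, SNAP29 falls short of 2-fold when summed with an overlapping gene that has far more counts. The 1.5-fold limit gave 6 (8%) higher and 16 (21.3%) lower, beside the 8.45% and 18.2% of all expressed genes. Summed with overlapping genes, SNAP29 (0.894) and LAMTOR4 (1.39) of the 6 and RUBCN (0.668) of the 16 fell short of 1.5-fold by CPM ratio. Only the genes named below were so summed. The median of -0.16 was close to that of all expressed genes. As for the pump genes, the part of the heart muscle difference was not tested.

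Regulators of the pump were represented by 8 genes, 5 of them expressed, with a median of -0.18. ROGDI, a subunit of the complex that reassembles V1 with V0, had 680 and 157 counts, a log2 ratio of -1.14, beside TCIRG1 at -0.74. CCDC115 and TMEM199, assembly factors, had log2 ratios of -0.18 and 0.12. CCDC115 summed with an overlapping entry gave a CPM ratio of 1.13 against its own 0.828. That entry, IMP4, held most of the sum, at 3488 and 3984 counts. ROGDI was the one pump regulator beyond 2-fold.

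The soluble hydrolases that share the lysosome with the cathepsins had a median of -0.32 over 26 expressed of 30 genes. This median was below 0 under each setting tried, as was that of all expressed genes except with median centring, where it was 0. Under TPM it was -0.61, beside -0.47 for all expressed genes. The pseudogene and overlap sums covered only genes of the name rule and could not move it. At least 2-fold lower were 2 (7.69%, beside 6.2% of all expressed genes), at least 1.5-fold lower 8 (30.8%, beside 18.2%) and at least 1.5-fold higher 1 (3.85%, beside 8.45%). NEU1, the sialidase that CTSA protects, had 2605 and 564 counts, 11.2 and 2.49 FPKM, a log2 ratio of -1.81. GLB1, the other enzyme of that complex, had 12.5 and 5.89 FPKM, a log2 ratio of -0.97, so that CTSA, GLB1 and NEU1 were lower in this order. GM2A, the activator of ganglioside breakdown, had 1145 and 316 counts, a log2 ratio of -1.49. Summed with an overlapping entry, GM2A gave a CPM ratio of 0.368 against its own 0.283. LGMN, the asparaginyl protease that matures cathepsins, had 9.19 and 4.204 FPKM, a log2 ratio of -0.97. The V-ATPase median of 0.17 and the hydrolase median of -0.32 lay on opposite sides of the -0.15 of all expressed genes; no test of that difference was possible.

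Membrane and sorting proteins had a median of -0.17 over 12 of 14 genes. NPC2, which hands cholesterol to NPC1, had 2328 and 758 counts, 17.0 and 5.66 FPKM, a log2 ratio of -1.43, and 0.415 as the CPM ratio with an overlapping entry added. LAPTM4B stood at -0.61, NPC1 at -0.41 and MCOLN1, the lysosomal calcium channel, at -0.34. MCOLN1 summed with overlapping entries on its strand gave a CPM ratio of 0.488 against its own 0.746. Most of that sum was PNPLA6, at 13316 and 6121 counts with 6 shared exon bases, so it says little of MCOLN1 itself. Of the cystatins, inhibitors of cysteine cathepsins, 3 of 5 were expressed. CST6 had 1158 and 2539 counts, 57.5 and 129 FPKM, a log2 ratio of 1.15, while CST3 stood at -0.47 and CSTB at -0.16.

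Autophagy genes outside the name rule had a median of -0.01 over 12 expressed of 22 genes. SNAP29, a fusion protein, had 37 and 268 counts and a log2 ratio of 1.19. With PI4KA on the opposite strand the sum was 4151 and 3621, a ratio of 0.894. PI4KA held most of that sum, at 4114 and 3353 counts, so the sum says little of SNAP29 itself. WDR45 stood at 0.66, RUBCN at -0.59 and WIPI1 at -0.44. Summed with overlapping entries, their CPM ratios were 1.62 against 1.89, 0.668 against 0.601 and 0.697 against 0.621. Among the cargo receptors 6 of 10 were expressed with a median of -0.08; NCOA4, the ferritin receptor, stood at -0.94, BNIP3 at -0.44, NBR1 at -0.25 and SQSTM1 (p62) at 0.30 with 56.7 and 70.2 FPKM.

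The list around TFEB and mTORC1, the kinase complex that keeps TFEB out of the nucleus from the lysosomal surface, had a median of -0.19 over 11 of 20 genes. LAMTOR1, which anchors the complex that recruits mTORC1, had 1621 and 4484 counts, 12.8 and 36.4 FPKM, a log2 ratio of 1.43, and LAMTOR4 stood at 0.73. LAMTOR4 summed with an overlapping entry on the opposite strand gave a CPM ratio of 1.39 against its own 1.74. MLST8 stood at -0.83 and RRAGD, a GTPase of the same surface, at -0.71 with 258 and 68 counts. The family of factors is named here after its values were seen. TFE3 was expressed with a log2 ratio of 0.14, while the other members were below 1 FPKM: TFEB had 162 and 144 counts, MITF 57 and 2, and TFEC 2 and 0. MITF was thus 27.8-fold lower by CPM (interval 7.35 to 235), on few counts. Its counts lay almost all in the control library, in which the heart muscle markers were high, and whether they belong with them was not tested. These are transcript levels and say nothing of where the proteins were.

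**Figure D4:**
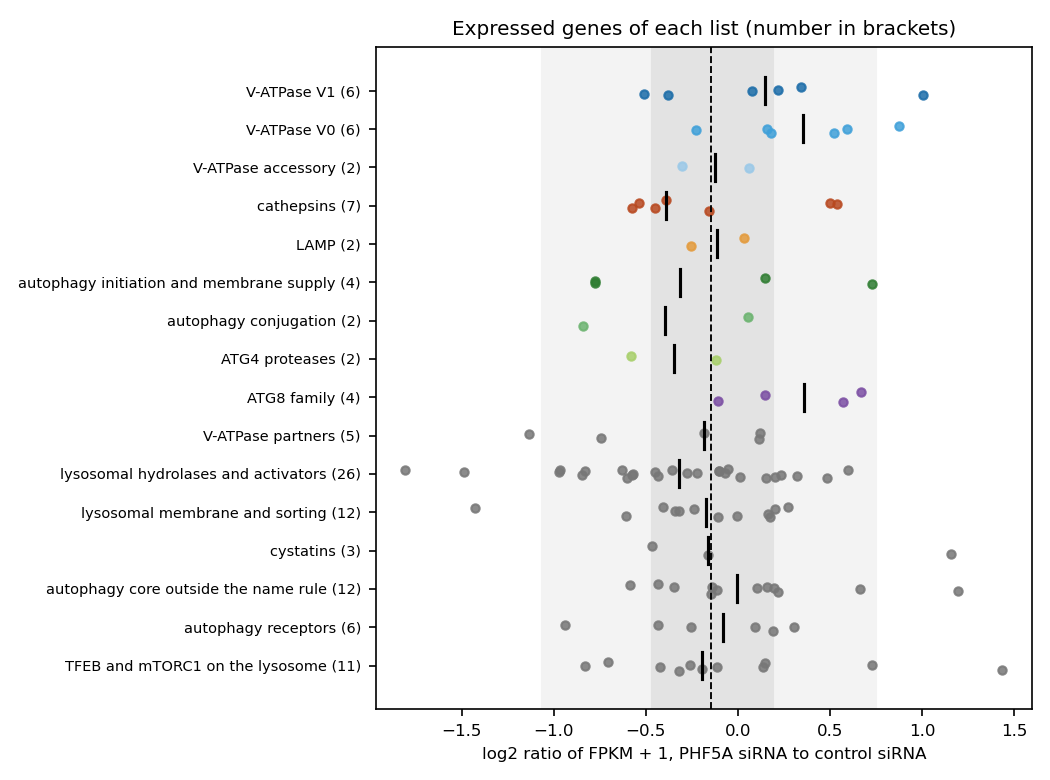
Log2 ratio of FPKM + 1, PHF5A siRNA to control siRNA, for every expressed gene of the role groups (coloured) and of the other pathway lists (grey); short black lines are medians, the dashed line the median of all expressed genes (-0.15), and the shaded bands hold their middle 50% (-0.47 to 0.19) and 90% (-1.06 to 0.75). The V0 and ATG8 medians (0.35 and 0.36) lie right of the inner band, the latter inside it (0.05) with overlapping entries summed; NEU1, GM2A, NPC2 and ROGDI are left of the outer band.

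The ratios also followed the exon number of the genes. Over the 35 expressed genes, Spearman's rho between the log2 ratio and the largest exon number of a GENCODE 29 transcript was -0.56 (-0.50 with the CPM ratio), beside -0.13 over 7677 expressed protein-coding genes (-0.14 with CPM). These are descriptions across genes of the same 2 libraries, in which genes are not independent replicates. The 7 genes with at most 4 exons, among them ATP6V1F, ATP6V0C, ATG101 and GABARAP, had a median of 0.57, and all protein-coding genes of that size -0.08. The 13 genes with 5 to 9 exons had a median of 0.05 (-0.12 for all), the 8 with 10 to 14 had -0.21 (-0.16 for all), and the 5 with 15 to 19 had -0.54 (-0.22 for all). With 20 or more exons there were 2, ATG2A and ATP6V0A1, with a median of -0.31 beside -0.26.

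Exceptions stood at either end. ATP6V0E1, with 4 exons, had a log2 ratio of -0.23, and ATP6V0A1 and ATG13, with 22 and 18, had 0.16 and 0.14. The length behind the FPKM values was less closely ordered with the ratio (rho -0.30, beside -0.08 over protein-coding genes), and GC content hardly at all (0.05, beside 0.07). The 17 shorter of the 35 genes had a median of 0.08 and the 18 longer 0.04.

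**Figure D5:**
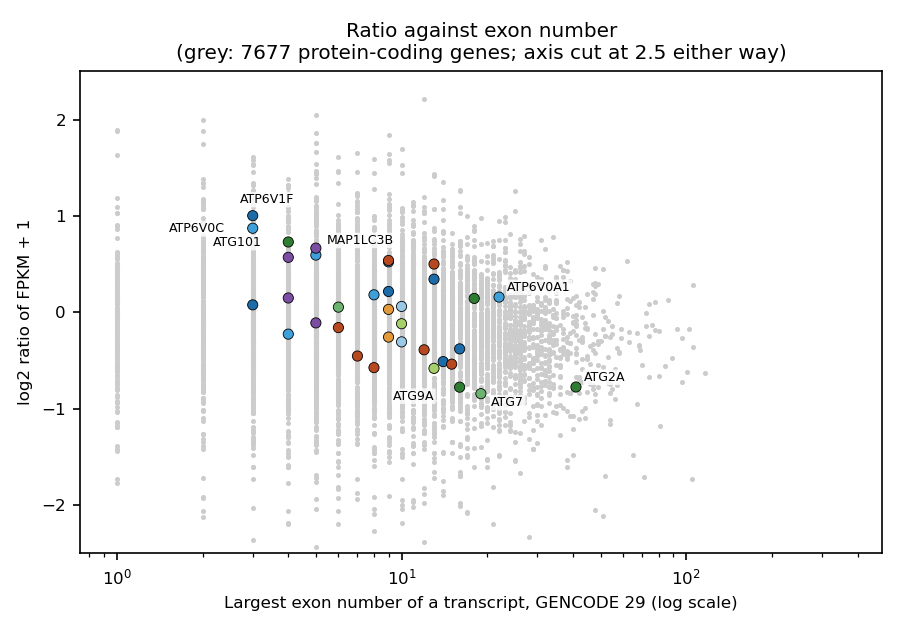
Log2 ratio of FPKM + 1 against the largest exon number of a transcript (log axis), with the 35 expressed genes coloured by role over all 7677 expressed protein-coding genes in grey; the vertical axis is cut at 2.5 either way. ATP6V1F and ATP6V0C, with 3 exons each, lie at the top, and ATG7, ATG9A and ATG2A, with 19, 16 and 41 exons, at the bottom of the coloured points.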

How the data were processed

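Per the labels' protocols, 1 library per group was prepared with the TruSeq Stranded Total RNA kit from RNA taken up in Trizol. HISAT2 2.0.4 and Cuffdiff were used with hg38 (GRCh38), per the submitters' processing notes. The sources used here give neither the annotation, nor whether strand was used, nor how multiply matching reads were counted. The deposited table pairs a whole-number count with an FPKM for every gene and library, per the file headers. Each FPKM is the count over 1 fixed length per gene and the library total, since lengths implied by both libraries differed by at most 0.0241%. Positions are those of the table, and 2 broken lines of its 50869 were left out.

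The log2 ratio is that of FPKM + 1, which understates the change of low genes. Expressed means 1 FPKM or more in the higher library; higher or lower means at least 2-fold (or 1.5-fold) by size alone. CPM ratios carry 95% Clopper-Pearson intervals for counting error only; reads are not independent molecules, and 3 counts is the limit that a count of 0 allows. Exons, overlaps and types come from GENCODE 29, which matched all 65 genes by identifier, and promoters from RefSeq. Expressed genes of the name rule are named with their values and the others with counts. Of each further list up to 4 expressed genes with the largest absolute log2 ratio are named. Named besides are ATG16L1, ATG16L2 and the TFEB family. The name rule uses no values, but it and the lists were chosen with earlier results of these data known. Alternatives were pseudocounts of 0.1 and 0.5, no filter, 5 FPKM, 4 scalings, CPM with a prior of 0.5, a 1.5-fold limit and summed pseudogenes. Union exon length and sums with overlapping entries were added after the data were seen. As settings, the pseudogene and overlap sums changed only genes of the name rule. The ratio and interval procedure was tested on counts simulated at the depths of the 2 libraries, with counting error only, as the interval assumes. Such a test cannot show how it fares with variation between cultures or a shift in library composition. Calculations ran in Python 3.11.15 (pandas 2.3.3, numpy 2.4.6, scipy 1.17.1) and plots in matplotlib 3.10.9. Splicing was not analysed here, since values are per gene.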

Additional observations from a re-analysis of the deposited data

How the results depend on the processing

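No paired analysis was possible because each group has 1 library. The count of expressed genes at least 2-fold higher, 1 as reported, was 2 with median centring, with upper-quartile scaling and without the abundant noncoding RNAs, 0 under TPM and with overlapping entries summed (ATP6V1F then falls just short), and 5 at 1.5-fold. The count at least 2-fold lower, 0 as reported, was 1 with a pseudocount of 0.1, 2 with CPM, 3 under TPM and 3 at 1.5-fold. The 2-fold shares of all expressed genes under these other settings are not given here. Their median moved as well, to 0 with median centring and to -0.47 under TPM. At 1.5-fold under TPM, 34.3% of the genes of the name rule were lower, beside 40.2% of all expressed genes. The median log2 ratio of 0.05 was negative without a filter (-0.028), under TPM (-0.34) and with union exon lengths (-0.045), and larger with median centring (0.20), upper quartile (0.20) and totals without the noncoding RNAs (0.19). Set against the median of all expressed genes, the 0.20 was 0.015 without a filter and 0.11 to 0.28 under the other settings, the causes of which were not tested. Against counting error, 114 values of single genes under an alternative moved and 236 did not. The 236 include values that could not move, since the pseudogene sum added no counts and genes without an overlapping entry had none to add. Under TPM 9 of the 35 genes changed sign, and with overlapping entries summed ATG4B and MAP1LC3B did. Depth limits the genes with the fewest counts, such as ATP6V1B1 at 5 and 16, where the interval of the CPM ratio was 1.15 to 11.5, and a count of 0 allows up to 0.113 CPM in the control and 0.116 CPM after knockdown.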
